A study of Rattus norvegicus with 44 samples.

Results

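The transcripts described here are the 9 genes that encode the transforming growth factor beta (TGFβ) ligands (Tgfb1, Tgfb2, Tgfb3), their signaling receptors and co-receptor (Tgfbr1, Tgfbr2, Tgfbr3), and the partners of this pathway best known from endothelial cells and from latent TGFβ (Eng, Acvrl1, Lrrc32), out of 18347 gene identifiers in the dentate gyrus (DG) table. They were taken by symbol, with all rows of 1 identifier added together. All 9 passed the filter on low values (a mean of at least 5), which kept 15598 genes. RNA came from the DG of 44 male F344 rats, 1 library per rat. The groups were young rats given vehicle (YNG, n = 10, 6 months old), and older rats given vehicle (AV, n = 12), ABT-263 (AA, n = 11) or D + Q, which is dasatinib plus quercetin (ADQ, n = 11). Older rats were 12 months of age when treatment began and 18 months at the end, were assigned at random, and received all agents by oral gavage in the same vehicle: ABT-263 at 12 mg/kg, dasatinib at 1.2 mg/kg and quercetin at 12 mg/kg, on 5 days of each of 8 cycles, with a further round after behavioral testing. How long the young rats received vehicle is not given in the sources used here. DG of a single hemisphere was dissected as bulk tissue, so that fewer cells of a type and less RNA per cell cannot be told apart. Each value is a signal: reads of a gene, divided by the library's size factor (median ratio) by the authors. The median total signal of a rat was 16660960 for YNG, 15537154 for AV, 15470836 for AA and 15376067 for ADQ. An estimate of the reads behind it, with the most common low value taken as worth 1 read, ran from 10166556 to 24328321 per rat. Lrrc32 was the least covered of the 9 genes, with an estimated 12 to 146 reads in a rat, and Tgfbr2 the next, with 63 to 314. Values are compared between groups and not between genes, because transcript lengths were not used here.

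TGFβ is secreted in a latent form and has to be released before it can act. The active ligand binds the type II receptor (Tgfbr2), which recruits and phosphorylates a type I receptor. In most cells this is Tgfbr1 (ALK5), which passes the signal to SMAD2 and SMAD3. Endothelial cells also carry Acvrl1 (ALK1), a type I receptor that responds to BMP9, BMP10 and TGFβ and signals through SMAD1, SMAD5 and SMAD8. Its co-receptor is Eng (endoglin). Loss of 1 copy of either gene causes hereditary hemorrhagic telangiectasia, a disorder of blood vessels. Tgfbr3 (betaglycan) is a co-receptor that presents ligand, TGFβ2 in particular, and Lrrc32 (GARP) holds latent TGFβ at the cell surface.

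Upstream sequence is given for 3 genes that the results below turn on. Their windows held bases before the first base of the annotated gene, and only those bases are printed. They serve to show what lies directly upstream of these genes. Sequences and coordinates are those of RefSeq on the GRCr8 build, all on the plus strand, and differ in build from the deposited values (rn6). A window was listed for 7 of the 9 genes, of which 4 had bases before the annotated gene. Capitals mark matches to 3 strings searched on both strands: the ETS core (GGAAG), the GC box (GGGCGG) and a SMAD core (CAGAC). All matches in these windows lie on the minus strand, so that the capitals show the reverse complement of each string, and none overlaps another.
Eng, chr3:36332029-36332189: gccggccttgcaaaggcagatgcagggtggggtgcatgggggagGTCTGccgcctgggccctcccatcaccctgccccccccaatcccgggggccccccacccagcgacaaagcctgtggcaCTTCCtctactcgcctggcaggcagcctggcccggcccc
Tgfb1, chr1:90324062-90324311: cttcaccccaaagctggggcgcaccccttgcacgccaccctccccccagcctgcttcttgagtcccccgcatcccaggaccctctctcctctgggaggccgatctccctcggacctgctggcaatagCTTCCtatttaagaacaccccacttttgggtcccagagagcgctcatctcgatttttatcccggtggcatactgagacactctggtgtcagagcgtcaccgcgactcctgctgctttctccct
Tgfbr3, chr14:2634044-2634293: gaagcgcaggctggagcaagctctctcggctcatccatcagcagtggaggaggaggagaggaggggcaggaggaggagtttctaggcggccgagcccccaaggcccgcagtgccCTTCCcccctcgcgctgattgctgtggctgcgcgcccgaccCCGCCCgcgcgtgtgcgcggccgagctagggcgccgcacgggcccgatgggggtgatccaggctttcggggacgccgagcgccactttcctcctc
The 161 bases before Eng held 1 ETS core and 1 SMAD core and no GC box. An ETS core occurred in 49.0% and a SMAD core in 29.6% of all windows cut to that length. The cut kept the last 161 of the first 250 bases of each window, also for the median G and C content below. The Eng bases were the first 161 of its window, so the positions differ. In the 250 bases before Tgfb1 there was 1 ETS core, and in those before Tgfbr3 there was 1 ETS core and 1 GC box, against 63.3% of all windows of that length with an ETS core and 30.5% with a GC box. G and C made up 72.7% of the Eng window and 71.2% of the Tgfbr3 window, where the medians of all windows were 52.8% and 51.2%. A match is a description of letters only.

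The tissue was checked against marker genes before the groups were compared. Markers of dentate granule cells (Prox1, C1ql2, Calb1 and others) were above 0 in every rat for 10 of the 12 genes listed, the exceptions being Tdo2 and Lct. Their summed signal was 16264 ± 2020.0 (mean ± SD) in YNG rats and 13336 ± 2902 in AV rats, and AA and ADQ rats had 12862 ± 3826 and 13596 ± 1197, of which C1ql2 gave 42.7%. Their sum fell under 8000 in 3 rats, AV rat 3989 (7844) and AA rats 3996 (7149.6) and 4107 (4417). The CA1 marker sum of these rats was 29281, 19355 and 43705, against group medians of 7658 to 10880.0. AV rat 3989 stood apart in blood vessel and blood genes as well, with an endothelial marker sum of 29496 against 18134 in the next rat, and a red blood cell marker sum of 95413. The rats also fall into 2 number series, rats up to 4011 with V1 to V6 (series a: 6 YNG, 6 AV, 5 AA, 5 ADQ) and the others (series b: 4 YNG, 6 AV, 6 AA, 6 ADQ). No label calls them batches, yet the transcript AABR07000398.1 took 0.422% to 1.60% of the signal in rats of series a and 1.71% to 11.1% of it in rats of series b. In series b the AV rats are numbered 4566 to 4572, and the AA and ADQ rats 4031 to 4110. Number range and treatment can thus not be told apart where series b is used to compare AA or ADQ with AV. Changes within each series and without the 3 rats are given below beside the results they touch.

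Group means were highest in AV for 7 of the 9 genes, and highest in YNG for Tgfb2 and Tgfb3. The share of all genes with the highest mean in AV is not given here, so nothing is read from this count. Among the 7 genes highest in AV, Tgfbr1 passed the threshold used below in no comparison. Tgfbr2, Tgfbr3, Eng, Acvrl1 and Lrrc32 were lowest in YNG, with AA and ADQ in between. Which neighbors in this order differed beyond their spread is given by the comparisons below: none of the 9 differed between AA and ADQ at the threshold used. All 9 genes were above 0 in every rat, and the lowest Lrrc32 was in rat V1 (13.5). The values of every rat are shown in the plot by group.

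**Figure D1:**
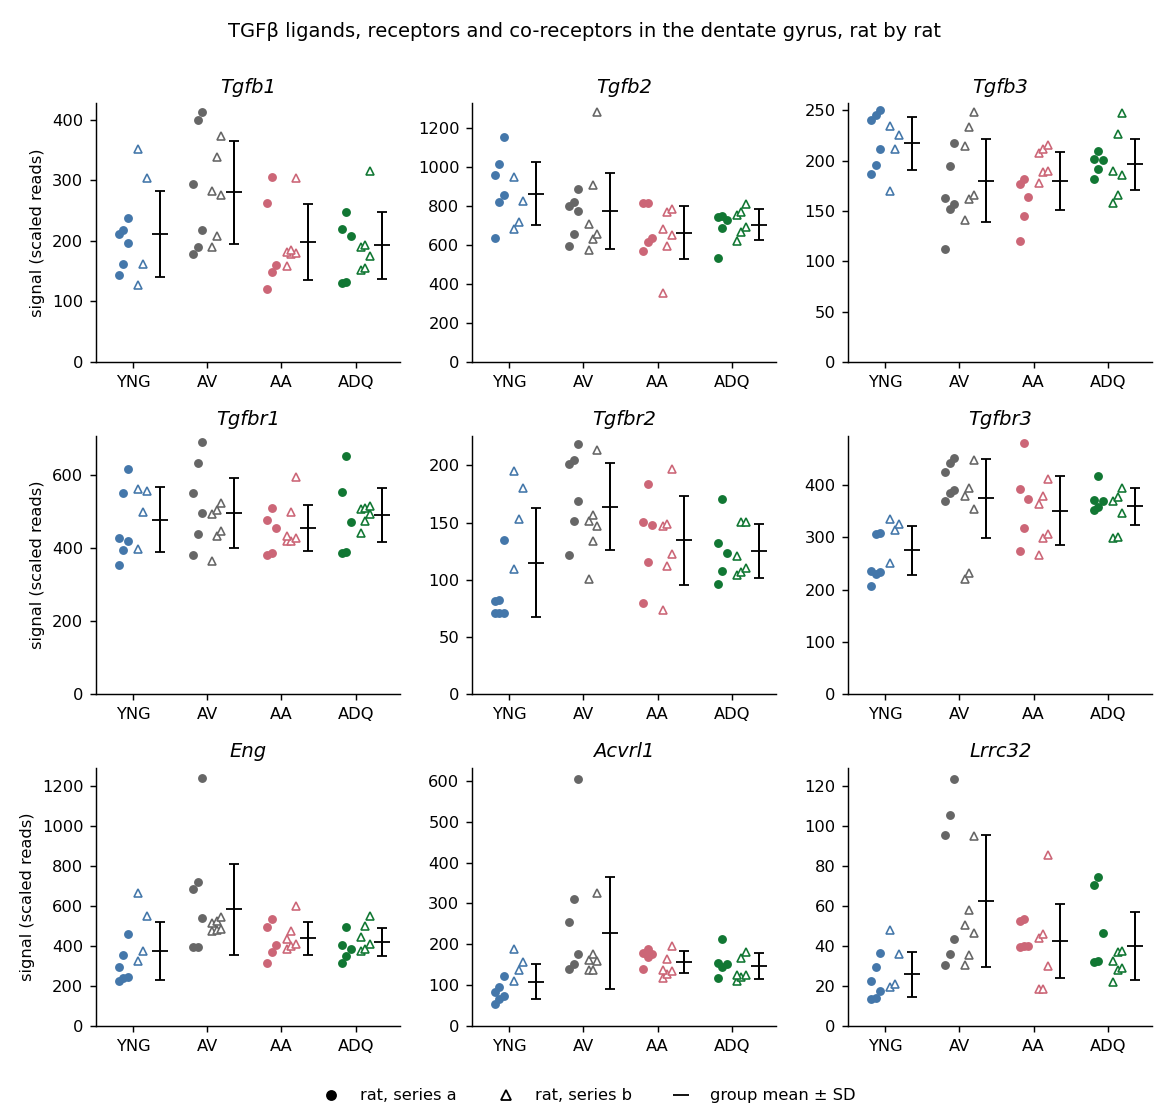
Signal (reads divided by the size factor of the library, y axis) of the 9 genes in each rat by group (x axis); filled circles are rats of series a, open triangles rats of series b, and the bars are the group mean ± SD. Acvrl1 and Lrrc32 of all 12 AV rats lie above the YNG medians of 103 and 21.8, and AV rat 3989 has the highest Eng (1239) and Acvrl1 (605) of all rats.

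The comparison of AV with YNG asks what differs in older rats without a senolytic. Values were tested with limma on log2(value + 1) in 1 fit of the 4 groups, two-sided, at the study's threshold of an unadjusted p below 0.05, and adjusted p-values are Benjamini-Hochberg values over the 15598 genes. Of the 9 genes, 6 were higher and 1 was lower in AV at this threshold, where 10.6% of all genes tested were higher and 10.7% lower. After adjustment 4 of the 9 passed, against 2.35% of all genes. The median log2 change of the 9 was 0.43, and that of all genes was -0.0017.

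Acvrl1, the endothelial type I receptor, was 1.99-fold higher in AV (log2 change 0.99 ± 0.20 (SE), p = 8.7e-06, adjusted p = 0.00346). Its signal ran from 55 to 188 with a median of 103 in YNG and from 137 to 605 with a median of 168 in AV. All 12 AV rats lay above the YNG median, and 4 of them (3989, 4568, 4009 and 3999, at 605, 325, 311 and 254) lay above the highest YNG rat. Lrrc32 showed the largest change among the 9, 2.28-fold (log2 change 1.19 ± 0.26 (SE), p = 3.7e-05, adjusted p = 0.00734). It ran from 13.5 to 47.8 with a median of 21.8 in YNG and from 30.6 to 124 with a median of 48.6 in AV, so that 6 of 12 AV rats exceeded every YNG rat and 7 of 10 YNG rats lay below every AV rat. Eng, the co-receptor that works with Acvrl1, was 1.58-fold higher (log2 change 0.66 ± 0.16 (SE), p = 1.5e-04, adjusted p = 0.016). YNG rats ran from 223 to 664 with a median of 341 and AV rats from 394 to 1239 with a median of 521. The groups overlapped, with 3 AV rats above the highest YNG rat and 7 YNG rats below the lowest AV rat. These 3 calls held when any single rat was left out, rat 3989 included, with log2 changes of 0.85 to 1.09 for Acvrl1, 1.08 to 1.29 for Lrrc32 and 0.55 to 0.76 for Eng.

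Among the TGFβ receptors proper, the type II receptor Tgfbr2 was higher in AV (log2 change 0.58 ± 0.17 (SE), p = 0.00171, adjusted p = 0.0612), from 70.6 to 196 with a median of 95.9 in YNG and from 101 to 219 with a median of 154 in AV. Every AV rat lay above the YNG median, but only 4 lay above the highest YNG rat. The betaglycan gene Tgfbr3 was higher as well (log2 change 0.43 ± 0.11 (SE), p = 3.9e-04, adjusted p = 0.0284). It ran from 207 to 336 with a median of 279 in YNG and from 220.4 to 453 with a median of 388 in AV, and 10 of 12 AV rats exceeded every YNG rat, the exceptions being rats 4567 (220.4) and 4572 (232). The type I receptor Tgfbr1 had a mean of 477 ± 89.7 (SD) in YNG and 495 ± 95.5 in AV, a log2 difference of 0.054 (95% interval -0.15 to 0.26, p = 0.599), with 2 AV rats above the highest YNG rat and 1 YNG rat below the lowest AV rat.

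The ligand genes moved in different directions. Tgfb1 was higher in AV (log2 change 0.41 ± 0.18 (SE), p = 0.0248, adjusted p = 0.174), from 128 to 351 with a median of 204 in YNG and from 178 to 412 with a median of 279 in AV, and 3 AV rats exceeded every YNG rat. This call was lost without any 1 of YNG rats V5 and V10 and AV rats 3989 and 4009, with p-values of up to 0.0645 and log2 changes down to 0.34, and with array weights, with a log2 change of 0.22. Tgfb3 was lower (log2 change -0.29 ± 0.11 (SE), p = 0.0102, adjusted p = 0.122), from 170.0 to 250.1 with a median of 218 in YNG and from 112 to 248 with a median of 165 in AV. In 7 of 12 AV rats it lay below the lowest YNG rat. The lowest value was in rat 3989 (112), a rat of low granule cell sum. The call held without any single rat, with the highest p without that one (0.028, limma). With each rat scaled to its total, which moved the median of all genes to 0.10, Tgfb3 was at -0.19 and not called, a shift that all genes shared. Tgfb2 differed by -0.17 (95% interval -0.41 to 0.072, p = 0.166), and its highest value was in an AV rat (4567, 1281).

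Several of these changes were larger in series a than in series b. In series a alone, 6 of the 9 genes passed the threshold, 5 of them higher, where 15.2% of all genes were higher and 33.4% passed in either direction, and in series b alone none of the 9 did, where 3.77% were higher and 6.31% passed. Acvrl1 rose by 1.56 ± 0.26 (log2, SE) in series a. The 6 YNG rats there had 55 to 122 and the 6 AV rats 139 to 605, so that these groups did not overlap. In series b the change was 0.25 ± 0.21 (p = 0.254, limma), with 111 to 188 in 4 YNG rats and 137 to 325 in 6 AV rats. Tgfbr2 rose by 1.06 ± 0.20 in series a (70.6 to 134 in YNG, 122 to 219 in AV) and differed by -0.086 ± 0.23 in series b (109.8 to 196 and 101 to 213, p = 0.706, limma). The means of the YNG rats lay apart for both genes. Acvrl1 was 82.4 in YNG of series a and 148 in YNG of series b, and Tgfbr2 was 85.1 and 159.6.

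The difference between the series was itself tested with an interaction term in limma. It passed adjustment for Tgfbr2 (1.15 ± 0.31, p = 6.0e-04, adjusted p = 0.0287) and Acvrl1 (1.31 ± 0.36, p = 7.1e-04, adjusted p = 0.0307), and passed the unadjusted threshold for Eng (0.93 ± 0.30, p = 0.00328, adjusted p = 0.0598) and Tgfbr3 (0.60 ± 0.21, p = 0.00716, adjusted p = 0.0871). For all genes, 21.8% passed the unadjusted threshold in either direction. For Lrrc32 the difference was 0.80 ± 0.51, p = 0.123, adjusted p = 0.358, with changes of 1.54 ± 0.33 in series a and 0.74 ± 0.37 (p = 0.0563, limma) in series b. Tgfb3 fell by 0.43 in series a and differed by -0.13 ± 0.16 in series b, a difference of -0.30 ± 0.21, p = 0.16, adjusted p = 0.409.

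**Figure D2:**
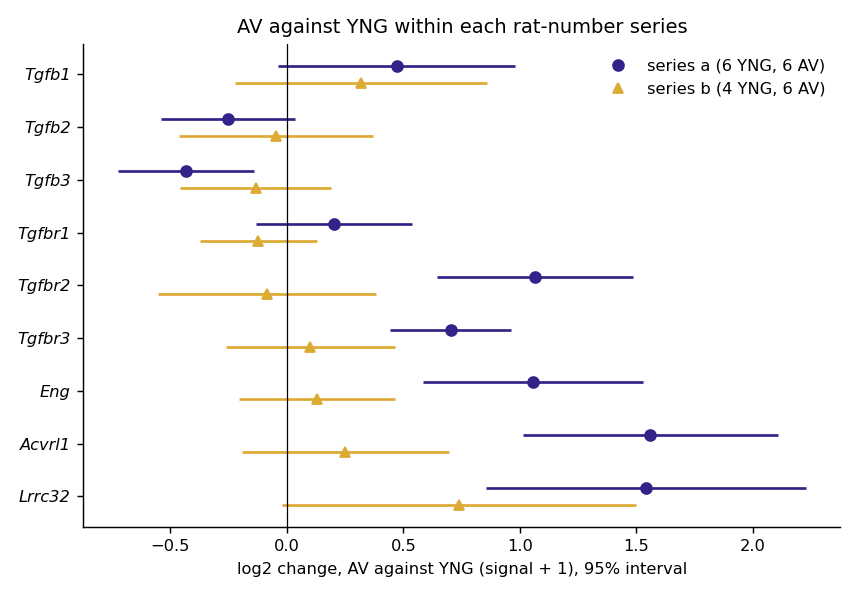
Log2 change of AV against YNG with its 95% interval (x axis) for the 9 genes (y axis), fitted within series a (circles) and within series b (triangles). Acvrl1, Eng, Tgfbr2, Tgfbr3 and Lrrc32 lie to the right of 0 in series a, and all 9 intervals of series b include 0.

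Rats given a senolytic were compared with the same YNG rats, so that these comparisons share their controls with the one above. In AA, 3 of the 9 genes were higher and 2 lower than in YNG, where 12.6% of all genes were higher and 14.1% lower, and none of the 9 passed adjustment, as 3.85% of all genes did. Tgfbr3 (log2 change 0.35 ± 0.11 (SE), p = 0.00376, adjusted p = 0.0605), Acvrl1 (log2 change 0.61 ± 0.20 (SE), p = 0.00406, adjusted p = 0.0618) and Lrrc32 (log2 change 0.69 ± 0.26 (SE), p = 0.0119, adjusted p = 0.0937) were higher. Acvrl1 ran from 117 to 197 with a median of 165 in AA, and all 11 AA rats lay above the YNG median. Tgfb2 was lower (log2 change -0.39 ± 0.12 (SE), p = 0.00255, adjusted p = 0.0547), from 356 to 818 with a median of 653, with all 11 AA rats below the YNG median of 841, and so was Tgfb3 (log2 change -0.28 ± 0.11 (SE), p = 0.0159, adjusted p = 0.106), from 120.3 to 216 with a median of 181. The lowest Tgfb2 of all rats was in AA rat 4107, which also had the lowest granule cell sum (4417), and the third lowest was in AA rat 3996 (567), with the next lowest sum. Rat 3996 also had the lowest Tgfb3 of AA (120.3), and the Tgfb3 call held without it (p = 0.0452, limma). Without the 3 rats of low sum the change of Tgfb2 was -0.27 and still passed, while 3 of 10 granule cell markers were lower in AA, and the part of these cells in the result was not tested. Scaling each rat to its total moved the median of all genes to 0.15 in AA, and with that common shift Tgfb2 (-0.24) and Tgfb3 (-0.13) were no longer called while Eng (0.45) and Tgfbr2 (0.42) were. Eng had a mean of 439 ± 81.7 in AA, 0.30 (95% interval -0.027 to 0.63, p = 0.0713) on the log2 scale.

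In ADQ, 3 genes were higher and 1 was lower than in YNG, where 13.5% of all genes were higher and 14.6% lower, and 1 of the 9 passed adjustment, as did 7.08% of all genes. That gene was Tgfbr3 (log2 change 0.40 ± 0.11 (SE), p = 0.00112, adjusted p = 0.0313), which ran from 298 to 418 with a median of 369, with 9 of 11 ADQ rats above every YNG rat. With the total signal of a rat as a covariate, Tgfbr3 was no longer called in ADQ (0.18) or AA (0.12). The median total was itself higher in YNG (16660960) than in AA (15470836) and ADQ (15376067). That fit therefore does not fully separate total from group. Acvrl1 (log2 change 0.50 ± 0.20 (SE), p = 0.0181, adjusted p = 0.104) and Lrrc32 (log2 change 0.63 ± 0.26 (SE), p = 0.021, adjusted p = 0.112) were higher, and Tgfb2 was lower (log2 change -0.28 ± 0.12 (SE), p = 0.0284, adjusted p = 0.13), from 534 to 809 with a median of 731 and in all 11 rats below the YNG median, where 3 of 10 granule cell markers were lower as well. The Acvrl1 call was lost without YNG rat V5 (p = 0.0532), and the Tgfb2 call without any 1 of YNG rats V2 and V4 and ADQ rat 4004 (p of up to 0.072, all limma). Within series a, 7 of the 9 genes passed in AA, where 28.6% of all genes passed in either direction, and 5 in ADQ, where 27.4% did. Tgfbr2 was among them in both (0.65 ± 0.21, p = 0.00584, and 0.57 ± 0.21, p = 0.0136, limma) and Eng in AA (0.51 ± 0.24, p = 0.0458, limma), where neither passed with all rats. Within series b none of the 9 genes passed in either comparison, where 12.4% and 6.9% of all genes did, and Acvrl1 was at -0.011 ± 0.21 for AA and -0.10 ± 0.21 for ADQ, against 1.08 ± 0.28 and 0.94 ± 0.28 in series a.

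Both senolytic groups were next set against AV, the comparison of treatment in rats of 1 age. The 2 comparisons share the 12 AV rats. Compared with AV, 2 of the 9 genes were lower in AA, where 3.1% of all genes were lower, and 5 of the 9 were lower in ADQ, where 5.9% were. None was higher in either. When single rats were left out in turn the AA count ran from 1 (without AV rat 3989 or AA rat 3988) to 5 (without AV rat 4567 or AA rat 4107) and the ADQ count from 3 to 5. The share of all genes called in those fits is not given here, so nothing is read from the moves of these counts. The difference between AA and ADQ was tested per gene, as given further on, and not for the counts. No gene of the 15598 passed adjustment in limma in either comparison, so that each of these calls rests on the unadjusted p. The median log2 change of the 9 genes was -0.31 in AA and -0.38 in ADQ, and that of all genes was 9.3e-04 and 0.0081.

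Tgfb1 was the ligand lower in both groups. It ran from 178 to 412 with a median of 279 in AV, from 121 to 305 with a median of 179 in AA (log2 change -0.49 ± 0.17 (SE), p = 0.0066, adjusted p = 0.999) and from 131 to 314 with a median of 189 in ADQ (log2 change -0.53 ± 0.17 (SE), p = 0.00389, adjusted p = 0.284). Below the lowest AV rat lay 5 AA rats and 5 ADQ rats, and 4 AV rats lay above the highest rat of AA and of ADQ. Means of Tgfb1 were 198 ± 62.7 in AA and 192 ± 54.6 in ADQ, and 211 ± 71 in YNG. Both calls held whichever single rat was left out. Within series, the change in ADQ was -0.55 ± 0.26 (p = 0.0427) in series a and -0.51 ± 0.23 (p = 0.0414, limma) in series b, and in AA it was -0.50 ± 0.26 (p = 0.0623) and -0.48 ± 0.23 (p = 0.0502, limma). The AV rats of series b have a number range of their own. Its values against AV, here and below, therefore do not separate number range from treatment. Without the 3 rats of low granule cell sum it was -0.48 in AA and -0.47 in ADQ. In the same comparisons 2 of 6 red blood cell markers were lower in AA and 6 of 6 in ADQ, and 5 of 16 microglial markers were lower in AA and 10 of 16 in ADQ, none after adjustment, where 3.1% and 5.9% of all genes were lower. AV rat 3989 had the highest Tgfb1 (412), the highest microglial sum (14570.3) and the highest red blood cell sum of all rats, and AA rat 3988, with the lowest Tgfb1 (121), had a microglial sum of 6514 and a red blood cell sum of 4107. Their part in the Tgfb1 result was not tested.

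Eng was lower in AA (log2 change -0.36 ± 0.16 (SE), p = 0.0254, adjusted p = 0.999), from 314 to 602 with a median of 410.5, and in ADQ (log2 change -0.42 ± 0.16 (SE), p = 0.00967, adjusted p = 0.399), from 315 to 547 with a median of 406. Below the lowest AV rat lay 3 AA rats and 5 ADQ rats. In AA this call was lost without AV rat 3989 or without AA rat 3988, with a p of up to 0.0774 and a log2 change down to -0.25, whereas in ADQ it held without any single rat. Acvrl1 was lower in ADQ (log2 change -0.50 ± 0.19 (SE), p = 0.0135, adjusted p = 0.423), from 109 to 214 with a median of 145, and was -0.38 (95% interval -0.77 to 0.0083, p = 0.0549) in AA. Below the lowest AV rat lay 5 ADQ rats, and 4 AV rats lay above the highest ADQ rat. None of these 3 calls was made in series b alone. Of the 9 genes, 1 passed in AA and 4 in ADQ in series a (3.85% and 5.67% of all genes, in either direction), and none in AA and 1, Tgfb1, in ADQ in series b (4.21% and 9.74%). Eng in AA was at -0.55 ± 0.24 (p = 0.031) in series a and -0.17 ± 0.15 (p = 0.24, limma) in series b, and in ADQ at -0.66 ± 0.24 (p = 0.0117) in series a and -0.20 ± 0.15 (p = 0.186, limma) in series b. Acvrl1 in ADQ was at -0.62 ± 0.28 (p = 0.0344) in series a and -0.35 ± 0.19 (p = 0.0792, limma) in series b. The difference between the series passed the threshold for none of them (p = 0.198 and 0.118 for Eng and 0.437 for Acvrl1, limma interaction). Without the 3 rats the calls remained, with Eng at -0.33 in AA and -0.31 in ADQ and Acvrl1 at -0.35 in ADQ.

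Tgfbr2 (log2 change -0.38 ± 0.17 (SE), p = 0.0306, adjusted p = 0.489) and Lrrc32 (log2 change -0.55 ± 0.25 (SE), p = 0.034, adjusted p = 0.499) were the other genes lower in ADQ. Tgfbr2 ran from 95.9 to 171 with a median of 121 and Lrrc32 from 22 to 74.3 with a median of 32.5. Both calls were lost without any 1 of AV rats 3989, 3999, 4009 and 4568, which brought the number of genes called from 5 to 3. The Tgfbr2 call was also lost without ADQ rat 3994, and the Lrrc32 call without ADQ rat 4031, 4074 or 4106. A permutation test of Lrrc32 gave p = 0.0507, above the threshold. Within series, Tgfbr2 was at -0.49 ± 0.21 (p = 0.0303) in series a and -0.26 ± 0.20 (p = 0.208, limma) in series b, and Lrrc32 at -0.38 ± 0.35 (p = 0.293) in series a and -0.67 ± 0.33 (p = 0.0526, limma) in series b. Without the 3 rats Tgfbr2 remained called in ADQ (-0.35) and Lrrc32 did not (-0.45), and both were called in AA (-0.40 and -0.56). In AA the values were -0.31 (95% interval -0.65 to 0.033, p = 0.0751) for Tgfbr2 and -0.49 (95% interval -1.0 to 0.017, p = 0.0577) for Lrrc32. Tgfbr3, which was higher than YNG in all older groups, differed from AV by -0.08 (95% interval -0.30 to 0.14, p = 0.47) in AA and by -0.032 (95% interval -0.25 to 0.19, p = 0.772) in ADQ. Tgfbr1, Tgfb2 and Tgfb3 passed the threshold in neither comparison.

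Between the 2 senolytics, AA against ADQ, none of the 9 genes passed the threshold over all rats in limma, adjusted or not, or in a permutation test, where 4.53% of all genes passed it unadjusted. ABT-263 is an inhibitor of BCL-2 family proteins and D + Q combines a kinase inhibitor with a flavonoid. The doses were set per compound and a dose was not varied here. The log2 difference was 0.12 (95% interval -0.28 to 0.51, p = 0.559) for Acvrl1, 0.06 (95% interval -0.26 to 0.38, p = 0.704) for Eng, 0.034 (95% interval -0.32 to 0.39, p = 0.849) for Tgfb1 and 0.06 (95% interval -0.46 to 0.58, p = 0.817) for Lrrc32. For Tgfb3 it was -0.13 (95% interval -0.35 to 0.085, p = 0.226), and in series a alone, where 5.98% of all genes passed, Tgfb3 was the 1 of the 9 that did, lower in AA (-0.33 ± 0.16, p = 0.0417, limma), with 0.035 ± 0.14 (p = 0.804, limma) in series b and a p of 0.0807 for the difference between the series (limma interaction). In series b none of the 9 passed, and 4.15% of all genes did. The intervals of Acvrl1 and Lrrc32 include differences as large as their changes from AV to ADQ, and a p above the threshold does not show that the treatments acted alike.

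**Figure D3:**
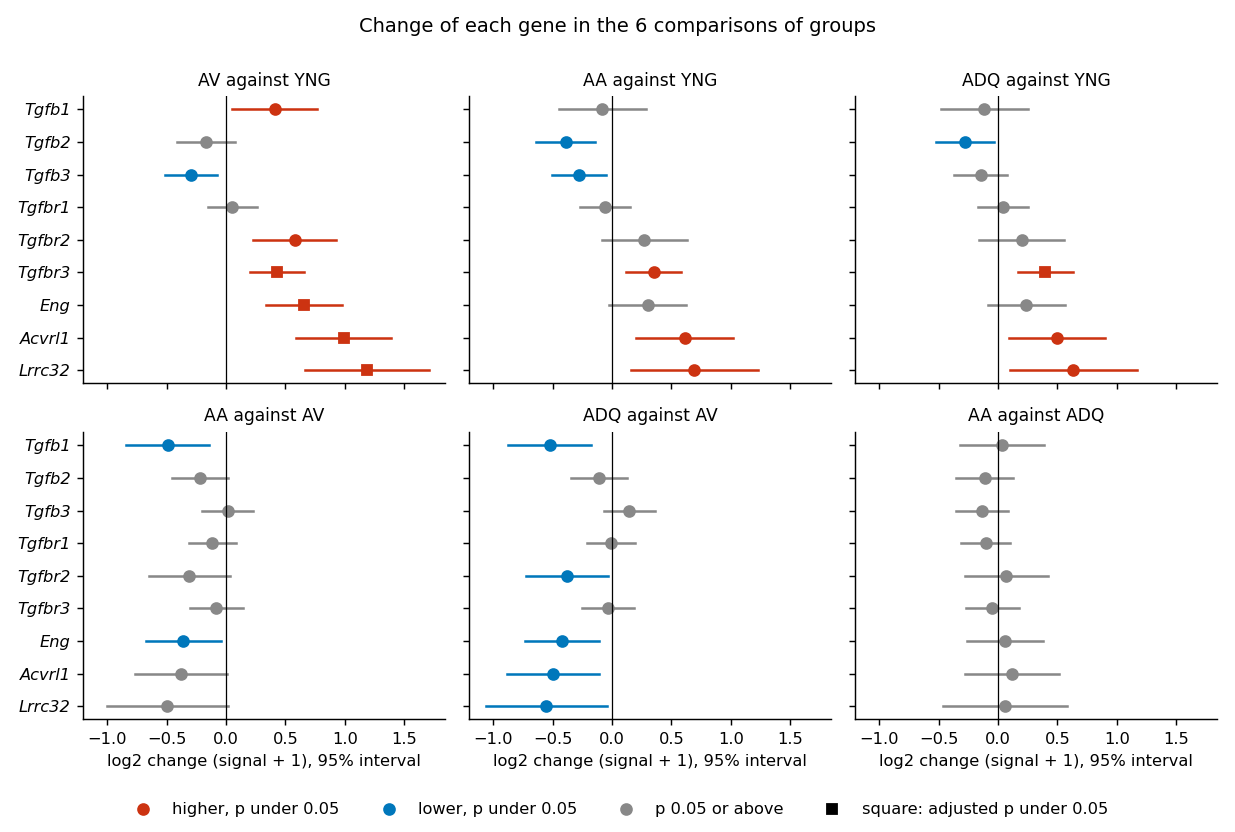
Log2 change with its 95% interval (x axis) of the 9 genes (y axis) in the 6 comparisons; red and blue mark genes higher and lower at an unadjusted p below 0.05, gray the others, and squares an adjusted p below 0.05. Squares appear for 4 genes in AV against YNG and for Tgfbr3 in ADQ against YNG.

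Acvrl1, Eng, Tgfb2 and Tgfbr1 each had 2 rows in the table under 1 symbol and identifier, and rows of a gene differed in which comparisons they passed. Row 1 of Acvrl1 held 68.3% of the gene's signal in AV and was lower in ADQ than in AV (log2 change -0.78 ± 0.24 (SE), p = 0.00199, limma), with means of 155 ± 99 and 84.4 ± 34.8. Its row 2 was at 72.2 ± 42 in AV and 62.1 ± 22.3 in ADQ, a log2 difference of -0.12 ± 0.26 (SE), p = 0.639. For Eng the smaller row, row 2, differed most between AA and AV (25.4 ± 16.1 against 65.9 ± 56.8, log2 change -1.23 ± 0.47 (SE), p = 0.0129), and the larger row 1 did not pass (-0.26 ± 0.16 (SE), p = 0.118). With only the larger row of each gene, Eng was thus no longer called in AA against AV and Acvrl1 was no longer called in ADQ against YNG (log2 change 0.37), while Eng in AA against YNG (0.38) and Acvrl1 in AA against AV (-0.55) passed the threshold. Tgfb2 was lower in AA than in YNG in row 1 (-0.45 ± 0.14 (SE), p = 0.00287), and row 2, which held 23.8% of its signal in AA, was at -0.085 ± 0.20 (SE), p = 0.679. Row 2 of Tgfbr1 stayed under the filter, with 0.675% of the signal in AV. No file states what the rows stand for or how reads were divided among them.

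Endothelial markers were counted in the same comparisons. Of 23 markers tested (Pecam1 and Abcb1a were not in the table), 19 rose and none fell from YNG to AV, where 10.6% of all genes were higher and 10.7% lower. After adjustment 10 passed, as 2.35% of all genes did, and the median log2 change was 0.65. Among these 10 were Sox18 (1.12, adjusted p = 0.00312), Esam (0.91, adjusted p = 0.00495) and Flt1 (1.06, adjusted p = 0.00504), an endothelial transcription factor, an adhesion molecule and a VEGF receptor. The summed signal of the 23 markers was 9369 ± 1979 in YNG rats and 13853 ± 5778 in AV rats, and AA and ADQ rats had 10394 ± 959 and 9939 ± 882. Ly6e was the most abundant with 22.4% of it, and every marker was above 0 in every rat, although Robo4 was under 1 in 12 rats. Against YNG, 11 of the 23 were higher and 1 was lower (Ly6e) in AA, with Flt1 and Sox17 higher after adjustment, and a median log2 change of 0.36, and 6 were higher and none lower in ADQ, none after adjustment, with a median of 0.28. Of all genes, 12.6% were higher in AA and 13.5% in ADQ than in YNG. Against AV, 6 of the 23 were lower in AA and 12 in ADQ, where 3.1% and 5.9% of all genes were lower, none higher, and none after adjustment. The 4 AV rats highest in Acvrl1 were also the 4 highest in the endothelial sum, with 29496 in rat 3989, 18134 in 4009, 17009 in 4568 and 16448 in 3999, where the other 8 AV rats had 9512 to 12012. Of the YNG rats, those of series a had sums from 6940.4 to 10593, and those of series b from 8922 to 12519. The part of the endothelial markers in the results for the 9 genes was not tested.

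**Figure D4:**
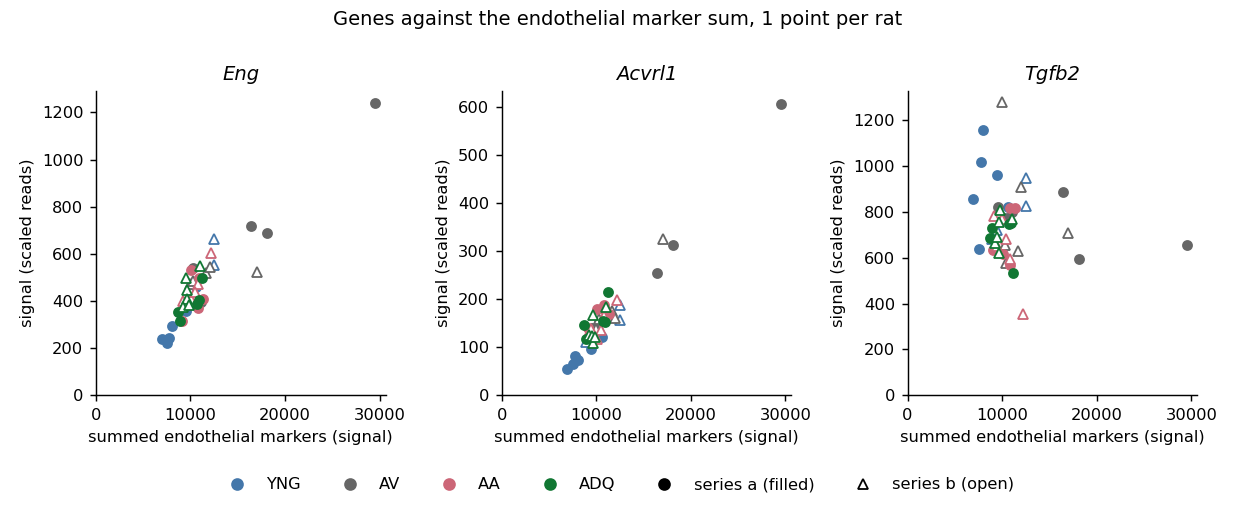
Signal of Eng, Acvrl1 and Tgfb2 (y axes) against the summed signal of 23 endothelial markers (x axis), 1 point per rat, with color for the group and open triangles for series b. Acvrl1 is high in the 4 rats with the highest sums, led by AV rat 3989 (29496), and Eng in 3 of them, rat 4568 (525) being near the AV median, whereas Tgfb2 in the 4 rats runs from 593 to 886, under the highest value of 1281.

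Of 13 marker genes of pericytes and smooth muscle tested, 3 were higher in AV than in YNG (Rgs5, Abcc9 and Ndufa4l2, none adjusted), where 10.6% of all genes were, 2 were lower in AA than in AV (Kcnj8 and Abcc9) and 3 in ADQ than in AV (these and Cspg4), and the median log2 change in AV against YNG was 0.25. Their sum was 2462 ± 426 in YNG rats and 2779 ± 610.0 in AV rats, with 2502 ± 545 and 2264 ± 253 in the AA and ADQ rats, and Cspg4 was the most abundant (27.5%). The mean sum was 2285 in YNG and 3112 in AV of series a, but 2728 in YNG and 2446 in AV of series b. Microglia, which express Tgfb1 and its receptors, had 7 of 16 markers higher in AV than in YNG, 1 adjusted (Tyrobp, 0.62, adjusted p = 0.033), 5 lower in AA than in AV and 10 lower in ADQ than in AV, with a median log2 change of 0.23 in AV against YNG. For these and the other lists here, 10.6% of all genes were higher in AV than in YNG. Of all genes, 3.1% in AA and 5.9% in ADQ were lower than in AV. The microglial sum of YNG, AV, AA and ADQ rats was 8047 ± 1453, 9469 ± 2040.4, 8146 ± 1383 and 7415 ± 645 in this order, led by Csf1r (24.8%). T and NK cells and platelets were looked at because Lrrc32 is also known from regulatory T cells and platelets. Of 8 T and NK cell markers tested, 5 were higher in AV than in YNG (Prf1, Cd8a, Gzmk, Cd4 and Nkg7, of which Prf1 and Cd4 after adjustment), with sums of 556 ± 158, 731 ± 336, 484 ± 96.1 and 449 ± 61.2 for YNG, AV, AA and ADQ rats, led by Gzmm (54.8%). Of the 5, Cd8a and Gzmk were at 0 in 27 of the 44 rats each, Nkg7 in 28 and Prf1 in 9. The same 5 were lower in AA than in AV, and 4 of them (all but Cd4) in ADQ, none after adjustment. Foxp3, on the same list, ran from 7.08 to 32.4 and was called in none of these comparisons. Il2ra and Ctla4 (means of 2.15 and 2.69) stayed under the filter. None of 3 platelet markers tested passed in any comparison, and Pf4, Gp9 and Gp6 were at 0 in some rats. Of 10 granule cell markers tested, AV had 2 (Calb1 and C1ql3), AA had 3 and ADQ had 3 (these and C1ql2) lower than YNG, and none higher. Of all genes, 10.7%, 14.1% and 14.6% were lower in AV, AA and ADQ. The part of these lists in the results was not tested. Without the 3 rats of low granule cell sum, a choice made after the values were seen, the number of genes called went from 2 to 4 in AA against AV and from 5 to 4 in ADQ against AV, and was 7, 5 and 4 in AV, AA and ADQ against YNG, as with all rats. The share of all genes called without these rats is not given here, so nothing is read from these counts.

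**Figure D5:**
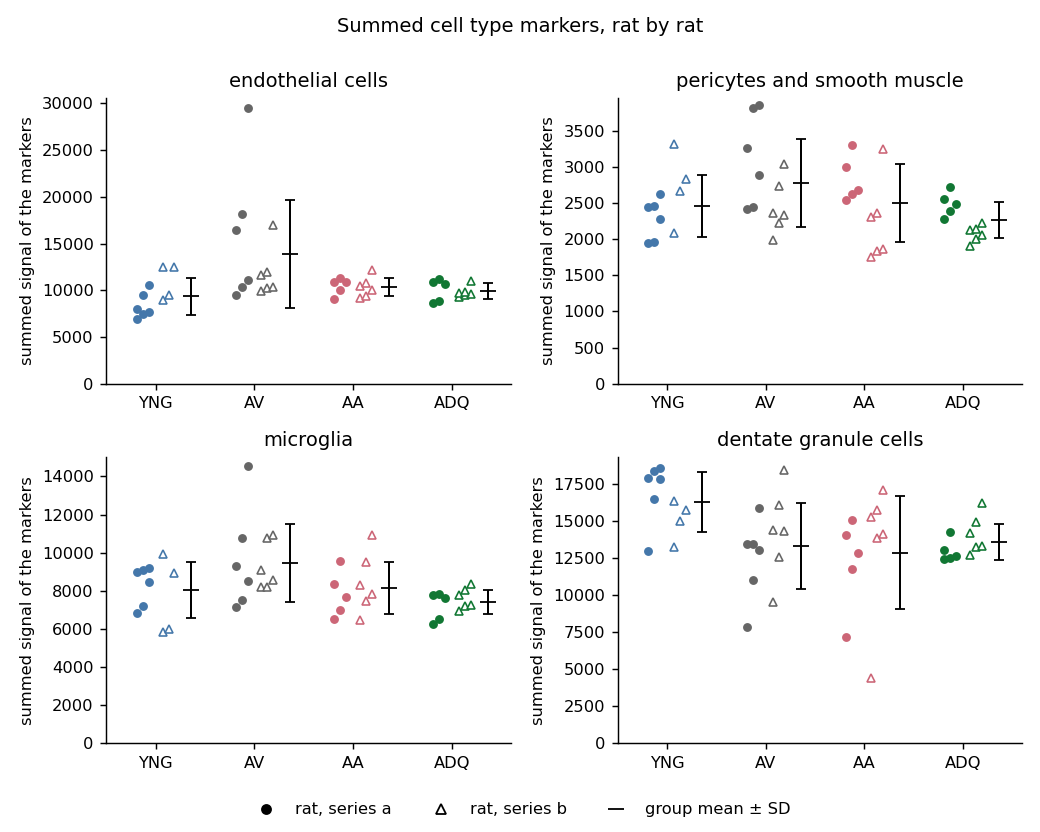
Summed signal of the markers of 4 cell types (y axes) in each rat by group (x axis); filled circles are rats of series a, open triangles rats of series b, and bars the group mean ± SD. In the endothelial sum 4 AV rats lie above all others, and 3 rats lie under 8000 in the granule cell sum.

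The rest of the TGFβ pathway was described with 5 lists, which held 94 genes in the table and 91 tested. In AV against YNG 19 of the 91 were higher and 4 lower, 7 after adjustment, where 10.6% of all genes were higher, 10.7% lower and 2.35% passed adjustment. The median log2 change was 0.11. Against AV, none was higher and 6 lower in AA, where 3.1% of all genes were lower, and 2 were higher and 14 lower in ADQ, where 5.9% were lower, none after adjustment. AA against YNG gave 13 higher and 5 lower, where 12.6% and 14.1% of all genes were, and ADQ against YNG 14 higher and 8 lower, where 13.5% and 14.6% were. The higher counts of these 2 comparisons were near those shares, and nothing is read from them.

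Common target genes of the pathway accounted for 9 of the 19 rises in AV, and none of the 18 tested was lower. Fn1, the matrix glycoprotein fibronectin, was at 627 ± 291 in YNG and 3037 ± 3497 in AV (log2 change 1.77, adjusted p = 9.1e-04). Id1, a target of the Acvrl1 branch, rose by 0.80 (adjusted p = 0.00569), Ccn2 (connective tissue growth factor) by 1.0 (0.0123), Col4a1, a collagen of the basement membrane, by 0.79 (0.0408) and Cdkn1a (p21) by 0.85 (adjusted p = 0.0496). The SD of Fn1 in AV exceeded its mean. The summed signal of the target genes was 4546 in YNG and 10495 in AV of series a, and 5241 and 6702 in series b. It was highest in AV rats 3989 (20362), 4009 (13419), 4568 (12106) and 3999 (10073), the same 4 rats that were highest in the endothelial sum. In ADQ, 7 of the 18 target genes were lower than in AV, none adjusted, among them Atoh8 (-0.46), Angptl4 (-0.55), Id1 (-0.59), Id3 (-0.41), Fn1 (-0.80) and Cdkn1a (-0.51). In AA, 2 were lower than in AV, Fn1 (-0.81) and Cdkn1a (-0.55). Against YNG, 5 of the 18 were higher in AA and 5 in ADQ, where 12.6% and 13.5% of all genes were, and 1 was lower in ADQ. In each of these comparisons 1 passed adjustment, and the medians were 0.20 and 0.14.

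Among the 18 SMADs and regulators, 4 rose and 1 fell from YNG to AV, where 10.6% of all genes were higher and 10.7% lower. Against YNG, 5 were higher and 2 lower in ADQ, where 13.5% and 14.6% of all genes were. In AA 2 were higher and 1 lower, near or under the 12.6% and 14.1% of all genes. Those that rose in AV were the inhibitory SMADs Smad7 (0.45, adjusted p = 0.042) and Smad6 (1.01, adjusted p = 0.0618), the ubiquitin ligase Smurf1 (0.25, adjusted p = 0.149) and Smad1 (0.27, adjusted p = 0.163) of the Acvrl1 branch, of which Smad7 alone passed adjustment. The inhibitors Smurf2, Ski, Skil and Ppm1a did not pass. Pmepa1, also an inhibitor, was lower in AV (-0.42), and the values of AA (-0.58) and ADQ (-0.71) against YNG were lower too, with adjusted p-values of 0.0406 and 0.0145. Of 13 genes for activation of latent ligand, Plat, the tissue plasminogen activator, was the 1 higher in AV (0.90, adjusted p = 0.0062), and it was lower in AA (-0.50) and ADQ (-0.69) than in AV, unadjusted. Against YNG, 2 of the 13 were higher and 2 lower in AA, and 1 was higher and 1 lower in ADQ, none after adjustment. Of all genes, 12.6% were higher and 14.1% lower in AA, and 13.5% and 14.6% in ADQ. The counts are near or under these shares, and nothing is read from them. The higher genes were Furin, a convertase that cleaves the TGFβ precursor, in AA (0.33) and ADQ (0.30), and Plat in AA (0.40). The lower ones were the matrix metalloproteinases Mmp2 in AA (-0.51) and ADQ (-0.44) and Mmp14 in AA (-0.55).

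Of 15 other receptors and co-receptors tested, 3 type I and type II receptors of activins and BMPs were higher in AV and in AA than in YNG: Acvr1 (0.34 and 0.41), Acvr1b (0.17 and 0.21) and Acvr2b (0.40 and 0.42), of which Acvr1b in AA passed adjustment (0.0478). Of all genes, 10.6% were higher in AV and 12.6% in AA. ADQ had 2 of the 15 higher than YNG, near the 13.5% of all genes. In ADQ, Acvr1 was higher than in YNG (0.58, adjusted p = 0.0195), and Nrp1, a co-receptor for VEGF and TGFβ, was higher than in YNG (0.38, adjusted p = 0.0439), than in AV (0.24) and than in AA (AA minus ADQ -0.33). Of 27 other ligands and binding proteins tested, 2 were higher in AV (Fmod, 0.59, and Bgn, 0.34) and 3 lower (Fst, -0.99, Gdf11, -0.15, and Nog, -0.30), none after adjustment, which is near or under the shares of all genes given above. Fst, the activin-binding follistatin, was lower in AA too (-1.25, adjusted p = 0.0317).

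The genes whose pattern was most like each of the 9 were sought among 13704 genes with a mean of at least 20, by Pearson's r of log2 values over the 44 rats after the 4 group means were taken out. These values are descriptions, since the highest of many were picked and all genes of a rat share its library and dissection. Acvrl1 went with the endothelial genes Mmrn2 (r = 0.90, rho = 0.89), Vwf (r = 0.89, rho = 0.85) and Esam (r = 0.86, rho = 0.83). Without the 2 rats farthest from its median (3989 and 4568), r was 0.87, 0.83 and 0.80. Eng went with Acvrl1 (r = 0.82, rho = 0.72), the tight junction gene Cldn5 (r = 0.81, rho = 0.74) and Vwa1 (r = 0.79, rho = 0.70), and Tgfbr2 with Jcad (r = 0.84, rho = 0.82), Akap2 (r = 0.82, rho = 0.79) and Ptprb (r = 0.81, rho = 0.80). Lrrc32 went with Emp1 (r = 0.78, rho = 0.79), Adm (r = 0.78, rho = 0.75) and Vim (r = 0.76, rho = 0.71), and Tgfb1 with Prelp (r = 0.82, rho = 0.83), Htra3 (r = 0.81, rho = 0.83) and Gnai2 (r = 0.81, rho = 0.83).

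The remaining genes had other nearest genes. Tgfb2 went with Zc3h14 (r = 0.83, rho = 0.80), Usp13 (r = 0.83, rho = 0.78) and Rgs13 (r = 0.82, rho = 0.75), and Tgfb3 with Lrfn2 (r = 0.74, rho = 0.64), Grik5 (r = 0.73, rho = 0.63) and Maz (r = 0.69, rho = 0.55). The highest r of Tgfb3 fell from 0.74 to 0.62 without rats 3989 and 3996. Tgfbr1 went with Hnrnpa2b1 (r = 0.83, rho = 0.86), Clcn3 (r = 0.81, rho = 0.82) and Far1 (r = 0.80, rho = 0.76), and Tgfbr3 with Iqgap1 (r = 0.85, rho = 0.86), Arrdc3 (r = 0.85, rho = 0.83) and Kdm3b (r = 0.83, rho = 0.74).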

How the data were processed

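Poly(A) RNA of the DG of 44 rats was sequenced on an Ion Torrent instrument. The authors aligned reads with STAR 2.5.3a to rn6 in Partek Flow and deposited, per row, a signal: reads scaled by median ratio. The table held 24694 rows for 18347 gene identifiers, of which 13985 had 1 row. In single rows, 51.9% to 55.5% of low values per rat came out whole within 0.05 reads, rows that share a gene included. The sums per identifier, which were the values fitted, were not checked for whole reads. No count model was used, and the depths given are estimates. Groups of older rats were taken from the authors' deposited sample attributes by rat name. Each rat is 1 library, so p-values measure the spread between rats.

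Rows were summed per identifier, and log2(signal + 1) of the 15598 genes with a mean of at least 5 was fitted with limma 3.58.1 (eBayes with trend, R 4.3.3), 4 groups in 1 fit. Fold changes on this scale understate changes of low genes. Single genes were also tested by permutation (100000 resamples). The script was tested on simulated data. The alternatives were other pseudocounts, filters, scalings, weights, covariates, groups in the fit, rows, the 2 rat-number series, and each rat left out. Of pathway lists, any gene with an unadjusted p below 0.05 could be named, of marker lists the 3 with the smallest p in AV against YNG and the most abundant, with others named where their count is small, chosen after their values were seen, and for likeness the 3 genes of highest r. The 9 genes and the 19 lists were chosen with earlier results of these data known. Values of 1 listed gene are not reported here.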

Additional observations from a re-analysis of the deposited data

Results flagged for a closer look

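The change of Tgfbr2 between AV and YNG differed between the 2 rat-number series, by a log2 difference of 1.15 ± 0.31, p = 6.0e-04, adjusted p = 0.0287 (limma, interaction term). All 6 AV rats and 6 YNG rats of series a gave 1.06 ± 0.20 and the 6 AV and 4 YNG rats of series b gave -0.086 ± 0.23. The same held for Acvrl1, with a difference of 1.31 ± 0.36, p = 7.1e-04, adjusted p = 0.0307, from 1.56 ± 0.26 in series a and 0.25 ± 0.21 in series b. The endothelial marker sum of these rats was 8378 in YNG and 15826 in AV of series a, and 10854 and 11879 in series b. Its part in the difference was not tested.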

How the results depend on the processing

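The numbers of the 9 genes called were 7, 5 and 4 in AV, AA and ADQ against YNG, 2 and 5 in AA and ADQ against AV, and 0 in AA against ADQ. Of 3312 single values recomputed under the alternatives, 3178 kept their call or its absence (57 of them changed sign while called in neither fit), 68 lost the call, 61 gained it and 5 reversed. Reversed means that the sign changed and the value was called in the main fit or in the alternative. In series b alone the counts were 0 in the 3 comparisons with YNG, 0 in AA and 1 in ADQ against AV (all genes 6.31%, 12.4%, 6.9%, 4.21% and 9.74%). Tgfbr2 in AV against YNG (-0.086, p = 0.706) and Acvrl1 in AA (-0.011, p = 0.959) and ADQ (-0.10, p = 0.641, all limma) against YNG reversed there. None of these series b values was called, so a lower level is not shown. Both series hold 22 rats, but series b has 4 YNG rats against 6, and its AV rats are numbered apart from its AA and ADQ rats. In series a alone the counts against YNG were 6, 7 and 5 in AV, AA and ADQ, where 33.4%, 28.6% and 27.4% of all genes passed in either direction, AA against AV gave 1 (Eng, 3.85% of all genes) and AA against ADQ 1 (Tgfb3, 5.98%). With array weights ADQ against YNG gave 7 and AA against AV 4, and with the total as a covariate AA against AV gave 1 and Tgfb1 reversed in AA (0.36) and ADQ (0.30) against YNG. Array weights also lost Tgfb1 in AV against YNG (0.22) and, as did the covariate, Eng in AA against AV (-0.25 and -0.26). The total signal differed between the groups, so the covariate fit does not fully separate total from group. The cause was not tested. Without the 3 rats of low granule cell sum, an alternative chosen after seeing the data, AA against AV gave 4. Shares of all genes with array weights, with the covariate and without the 3 rats are not given here. Nothing is therefore read from the counts at these settings.

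Leaving out 1 rat gave 6 to 8 in AV, 5 to 7 in AA and 3 to 5 in ADQ against YNG, 1 to 5 in AA and 3 to 5 in ADQ against AV, and 0 between AA and ADQ. The comparison of ADQ with AV gave 3 without AV rat 3989, 3999, 4009 or 4568. AA against AV gave 1 without AV rat 3989 or AA rat 3988, 4 without AV rat 4011, 4566 or 4569 or AA rat 3984 or 3996, and 5 without AV rat 4567 or AA rat 4107. Shares of all genes with 1 rat left out are not given here either, so nothing is read from the moves of these counts. Scaling to the total moved the median of all genes by 0.10, 0.15 and 0.14 in AV, AA and ADQ against YNG. In a permutation test Lrrc32 in ADQ against AV had p = 0.0507. Depth limits Lrrc32 most. No paired analysis was possible because the labels give no replicate numbers and every rat is in 1 group.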

Other observations

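Other cell type lists were counted in the same fit. For the lists here and below, 10.6% of all genes passed as higher when AV was set against YNG. Against AV, the share of all genes that passed as lower was 3.1% for AA and 5.9% for ADQ. Of 10 oligodendrocyte genes 8 were higher in AV than in YNG, none after adjustment, with a median log2 change of 0.41, and 5 were lower in ADQ than in AV (Cldn11, Mbp, Cnp, Mobp and Mag). Of 12 astrocyte genes 3 were higher in AV than in YNG (Gja1, S100b and Gfap), with a median of 0.10, and 2 were lower in AA than in AV (Sox9 and Gfap) and 3 in ADQ (these and Atp1b2). Against YNG, 2 of the 12 were higher and 3 lower in AA, none after adjustment, where 12.6% and 14.1% of all genes were. In ADQ 1 was higher and 3 lower, 2 after adjustment, where 13.5% and 14.6% were. The medians were -0.055 in AA and -0.075 in ADQ. Of 6 red blood cell genes Slc4a1 was higher in AV than in YNG, and 2 and 6 were lower in AA and ADQ than in AV, with medians of -0.82 and -0.98.

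Of 14 immediate early genes, which follow neuronal activity, 7 were higher in AA than in YNG (2 after adjustment), where 12.6% of all genes were higher, and 7 were higher in AA than in ADQ (none after adjustment), where 4.53% of all genes passed in either direction. In AA against AV, 1 of the 14 was higher (Npas4, unadjusted). The medians of these comparisons were 0.37, 0.46 and 0.22 on the log2 scale. Those higher in AA than in both YNG and ADQ were Egr2, Dusp1, Fos and Npas4. In AV 2 were higher than in YNG (Dusp1 and Fosb), and in ADQ 3 were lower than in AV (Dusp1, Junb and Ier2). Of 6 choroid plexus genes tested none passed in AV against YNG (median 0.62) and 2 were lower in ADQ than in AV (Aqp1 and Clic6). None of 7 CA1 genes passed in any comparison. Of 9 genes of CA3 and mossy cells Gal was lower in AV than in YNG, and of 10 genes of meninges and fibroblasts Col3a1 was, near the 10.7% of all genes. CA3 and mossy cell genes also had 1 higher and 1 lower in AA and 1 higher in ADQ than in AV, and 1 lower in AA than in ADQ. Meningeal and fibroblast genes had 2 lower in AA than in YNG, and 1 lower each in AA and ADQ than in AV. They also had 1 lower in AA than in ADQ, and nothing is read from the counts of these 2 lists.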
